A study of Mus musculus with 2 samples.

Results

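The 38 genes described here drive or carry out DNA replication and mitosis. They were taken by symbol from the 31053 genes of a single-cell RNA-seq count matrix, 1 row for each symbol, by a rule on symbols that uses no measured value, although the list was drawn up with earlier results of these data known. Of these, 14 act in replication (Mcm2 to Mcm7, Pcna, Gmnn, Tyms, Rrm1, Rrm2, Tk1, Dut and Hells) and 24 act in mitosis (Cdk1, Ccna2, Ccnb1, Ccnb2, Cdc20, Ube2c, Plk1, Aurka, Aurkb, Birc5, Bub1, Bub1b, Cenpa, Cenpe, Cenpf, Kif11, Kif20a, Kif23, Tpx2, Nusap1, Hmmr, Top2a, Mki67 and Stmn1). The study asked how Smad3, a transcription factor downstream of TGF-β, shapes tumor-associated neutrophils (TANs). Cells gated as CD11b+ and Ly6G+ were sorted from subcutaneous tumors of Lewis lung carcinoma (LLC), a mouse lung carcinoma line, and 10x 5′ libraries were made from them. Smad3-WT (Smad3+/+) and Smad3-KO (Smad3-/-) hosts were C57BL/6J mice of 8 to 12 weeks, and each genotype gave 1 library from 8 pooled tumors. The carcinoma cells were inoculated and so did not carry the genotype of the host.

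A cell that divides first copies its genome and then separates the copies. The MCM2 to MCM7 ring opens the double helix, PCNA holds the polymerases on DNA, and ribonucleotide reductase, thymidylate synthase, thymidine kinase and dUTPase supply the nucleotides. Cyclins A and B with CDK1 then drive entry into mitosis, polo-like and Aurora kinases build the spindle, and the anaphase-promoting complex, with CDC20 and the ubiquitin carrier UBE2C, ends it. Replication genes are transcribed mainly through E2F factors, and many mitosis genes through the DREAM and MuvB complexes at a short element called CHR. Neutrophils leave the cycle before they leave the bone marrow, whereas their precursors, the cells that still make granule proteins, include dividing cells.

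Promoters are shown for 4 members because the letters searched were found at different rates in the replication and the mitosis genes. RefSeq windows of the mouse build GRCm38.p6, from 250 bases before to 50 bases after the start of transcription, were held for 31 of the 38 members, in 32 windows. The E2F letters searched were TTTGGCGC, TTTCGCGC and TTTCCCGC, the CHR letters were TTTGAA and TTTAAA, and both strands and overlapping matches were counted. E2F letters stood in 5 of 13 replication windows (38.5%; those of Hells, Mcm3, Mcm5, Mcm6 and Mcm7), in 1 of 19 mitosis windows (5.26%; Cdk1) and in 1.84% of all 32851 windows. CHR letters stood in 4 of 13 replication windows (30.8%), 17 of 19 mitosis windows (89.5%) and 27.6% of all windows. Within 100 bases before to 50 bases after the start, the shares with CHR letters were 15.4%, 84.2% and 12.8%. The letters CCAAT, also counted on both strands, stood in 69.2% of replication windows, 89.5% of mitosis windows and 37.4% of all windows. In the first pair below capitals mark the E2F letters, and in the second pair they mark the CHR letters.
Mcm6 (chr1:128359656-128359955, minus strand; E2F letters start at -110, -106 and -47 from the start site): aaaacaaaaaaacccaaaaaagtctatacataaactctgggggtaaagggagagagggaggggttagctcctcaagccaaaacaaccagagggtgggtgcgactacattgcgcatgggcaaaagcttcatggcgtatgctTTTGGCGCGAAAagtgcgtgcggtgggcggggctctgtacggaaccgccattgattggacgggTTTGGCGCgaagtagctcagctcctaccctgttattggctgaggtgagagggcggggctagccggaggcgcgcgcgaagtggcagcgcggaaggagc
Mcm5 (chr8:75109259-75109558, plus strand; E2F letters start at -153 and -149): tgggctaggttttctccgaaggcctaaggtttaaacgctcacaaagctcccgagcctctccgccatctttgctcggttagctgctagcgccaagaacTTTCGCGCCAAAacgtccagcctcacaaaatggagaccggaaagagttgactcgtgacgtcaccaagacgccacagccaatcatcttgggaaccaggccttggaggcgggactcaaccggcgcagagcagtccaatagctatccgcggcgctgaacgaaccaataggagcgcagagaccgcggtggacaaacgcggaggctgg
Plk1 (chr7:122159185-122159484, plus strand; CHR letters start at -89, -29 and 30): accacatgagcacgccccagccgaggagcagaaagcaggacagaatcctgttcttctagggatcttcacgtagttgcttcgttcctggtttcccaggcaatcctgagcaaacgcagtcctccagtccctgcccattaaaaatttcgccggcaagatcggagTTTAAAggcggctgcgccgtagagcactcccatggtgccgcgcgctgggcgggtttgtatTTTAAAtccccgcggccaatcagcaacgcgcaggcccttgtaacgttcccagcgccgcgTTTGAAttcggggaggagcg
Ube2c (chr2:164769679-164769978, plus strand; CHR letters start at -29): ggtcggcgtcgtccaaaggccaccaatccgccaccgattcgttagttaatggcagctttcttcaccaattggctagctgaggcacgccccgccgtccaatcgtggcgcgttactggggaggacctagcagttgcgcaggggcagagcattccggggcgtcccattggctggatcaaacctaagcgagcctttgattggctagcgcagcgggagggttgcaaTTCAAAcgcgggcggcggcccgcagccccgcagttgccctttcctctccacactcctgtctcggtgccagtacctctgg
Overlapping matches run together in the capitals of Mcm6 and of Mcm5. A match of letters is a description of the sequence and not a measured site of binding.

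The Smad3-WT matrix comprised 4116 barcodes with 23951400 unique molecular identifiers (UMIs), and the Smad3-KO matrix 2514 barcodes with 4214290. Kept were cells with over 500 UMIs, 200 or more genes and a mitochondrial share below 10%, with no upper limit. This left 3902 and 2433 cells with a median of 1770.5 and 1199 UMIs. Levels are UMIs summed over cells per 1000000 UMIs of the same cells (CPM). Smad3 itself was at 12.7 CPM in Smad3-WT (299 UMIs) and at 77.4 CPM in Smad3-KO (321 UMIs), but 5′ tags lie at the start of the transcript, away from the disrupted part, and check nothing about the genotype. Clusters were made without the members and 95 related cell cycle genes, and were named from marker genes. The sort held much besides neutrophils. Neutrophils made up 1805 of 3902 Smad3-WT cells and 993 of 2433 Smad3-KO cells. S100a8, which encodes a subunit of calprotectin, was found in 94.7% and 90.9% of them, and Ly6g, the gene of the sorting antigen, in 1.33% and 5.44%. Smad3-WT also held 592 LLC carcinoma cells (Krt8, Krt18, Wfdc2, Rhox5 and Cav1, with Ly6g in 0.507%), of which Smad3-KO held 1. The LLC genes named are the 5 of 10 listed markers that met the naming rule, and 7 of the 10 had a UMI in the Smad3-WT LLC cells. Smad3-KO held 577 B cells and 61 neutrophils with granule genes (Camp, Ngp, Ltf, with Ly6g in 78.7%). A cluster of 175 Smad3-WT cells and 1 Smad3-KO cell, with a median of 17418 UMIs and led by Ccl12, C1qc, C1qa and C1qb beside Hspg2 and Myof, was left unnamed as cluster 11. In its Smad3-WT cells the LLC markers were at 988 CPM, against 1472 in LLC cells and 34.6 in Smad3-WT macrophages. The macrophage markers were at 3462 CPM, against 43.2 in LLC cells and 14391 in those macrophages. Whether its barcodes joined cells of both kinds was not tested.

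Of the kept cells, 44 barcodes occurred in both libraries. In 34 of these pairs the shallower cell held under 20% of the UMIs of the deeper one. In 21 pairs the deeper cell was in Smad3-WT (a median of 1.14% in the shallower cell), and in 13 it was in Smad3-KO (4.86%). The deeper cells had at least 11315 UMIs in the 21 pairs and at least 10529 in the 13. They held 4764 and 650 member UMIs, and the shallower cells held 53 and 32. The shared barcodes held 9.37% of the member UMIs of Smad3-WT and 25.5% of those of Smad3-KO, against 4.71% and 4.94% of all UMIs. An unnamed cluster 20 consisted of such barcodes for 19 of its 24 Smad3-KO cells, and it is left out of comparisons between classes. Leaving out only the shallower cells moved none of the compared values beyond its interval. Values without all shared barcodes, which also leave out the deep cells of these pairs, are given for the main summed ratios and some shares. They are not given for single members, counts of calls or quotients of replication over mitosis members. In Smad3-KO, shared barcodes held 353 of 852 member UMIs of T or NK cells. They held 136 of 268 in fibroblasts and 91 of 431 in dendritic cells. With 1 library per genotype no difference between the genotypes could be tested. Intervals are at the 95% level and cover counting error only, and genotype cannot be told apart from library.

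Member transcripts were mostly not in neutrophils. In Smad3-WT the 38 genes had 51196 UMIs, 0.217% of the kept UMIs, and LLC carcinoma cells held 76.3% of them (75.9 to 76.6%) against 55.8% of all UMIs. Cluster 11 held 14.3% and macrophages held 5.13%, while neutrophils held 0.441% (0.386 to 0.503%) against 6.53% of all UMIs. In Smad3-KO the genes had 2767 UMIs, 0.0667% of the kept UMIs. T or NK cells held 30.8% of them (29.1 to 32.5%), B cells 29.2%, dendritic cells 15.6%, fibroblasts 9.69%, granule-gene neutrophils 5.49% and other neutrophils 2.49%, the last against 26.5% of all UMIs. The dendritic share ran from 1.08% to 19.4% over the alternatives, lowest where cluster 13 was named macrophages, and the neutrophil share reached 4.01% without cells with 3 markers of another lineage. Without shared barcodes the T or NK share was 24.2% and the B cell share 35.7%. Depth went with these shares: 382 Smad3-WT cells and 0 Smad3-KO cells had 20000 UMIs or more, and they held 72.6% of the Smad3-WT member UMIs against 48.3% of all UMIs. In an alternative, cells of that depth were left out and the remaining cells were clustered and named anew. The Smad3-WT shares were then 67.0% for LLC cells, 12.2% for macrophages and 1.63% for neutrophils. These classes need not hold the same cells as those above, so the shares do not show the effect of depth alone.

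**Figure D1:**
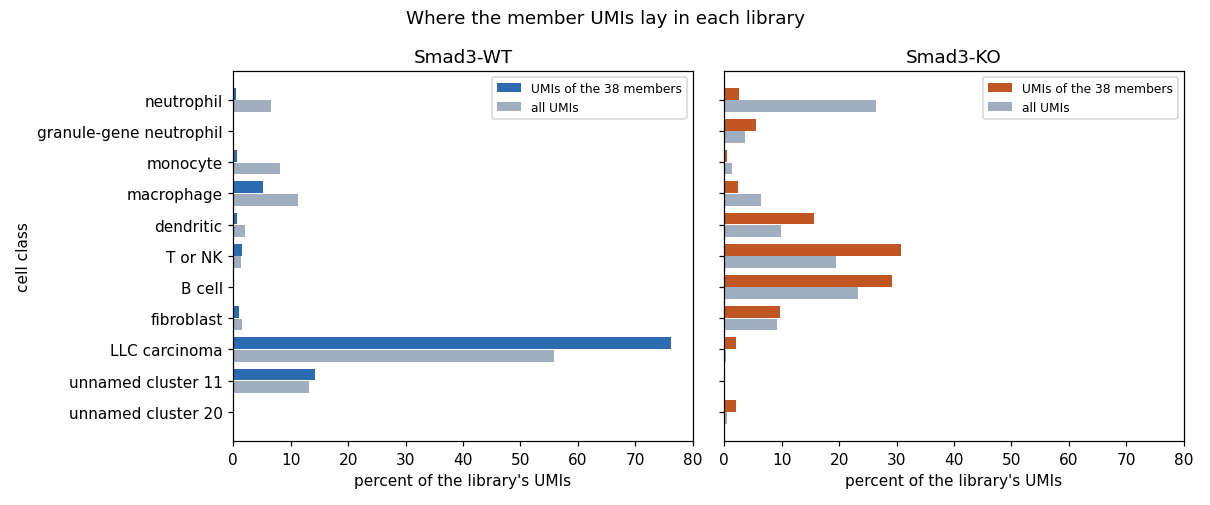
Percent of each library's UMIs that lay in each cell class, for the 38 members (colored bars) and for all genes (grey bars). In Smad3-WT the LLC carcinoma bar reaches 76.3% for members against 55.8% for all genes, and in Smad3-KO the members lie mostly in T or NK cells, B cells and dendritic cells.

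The genes of the replicative helicase were between 28.3 (Mcm4) and 67.4 CPM (Mcm6) in LLC cells and at most at 3.90 CPM in neutrophils of either library. Mcm6 was at 67.4 CPM (63.0 to 72.0) in LLC cells, 77.7 in Smad3-WT T or NK cells and 29.4 in Smad3-WT macrophages, and at 1.95 in Smad3-WT neutrophils and 0.911 in Smad3-KO neutrophils (3 UMIs and 1 UMI). Mcm5 was at 33.6 CPM in LLC cells, 45.3 and 37.2 in T or NK cells of Smad3-WT and Smad3-KO, and 3.25 and 0 in neutrophils. In B cells of Smad3-KO, Mcm6 was at 54.0 CPM and Mcm7 at 48.8. Pcna, the sliding clamp of replication that also serves DNA repair, did not follow this pattern in neutrophils, with 24.7 CPM in Smad3-WT (17.5 to 33.9; 38 UMIs) and 25.5 in Smad3-KO (16.9 to 36.8; 28 UMIs) against 99.0 in LLC cells. It held 28 of the 37 replication UMIs of Smad3-KO neutrophils. Gmnn, whose product geminin blocks a second loading of the helicase, was at 90.0 CPM in LLC cells, 39.9 in Smad3-WT macrophages, 18.8 in Smad3-WT monocytes and 6.51 in Smad3-WT neutrophils.

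Rrm2, the regulatory subunit of ribonucleotide reductase, was at 127 CPM in LLC cells, 98.3 in granule-gene neutrophils (55.0 to 162; 15 UMIs), 23.7 in Smad3-WT macrophages and 0 in the 99 Smad3-KO macrophages. Its partner subunit gene Rrm1 was at 40.9, 13.1, 21.1 and 11.5 CPM in the same order. Tk1, cytosolic thymidine kinase, was at 96.4 CPM in LLC cells, 45.3 and 18.6 in T or NK cells of Smad3-WT and Smad3-KO, 0.651 in Smad3-WT neutrophils and 0 in granule-gene neutrophils. Dut, which keeps uracil out of DNA, was at 248 CPM in LLC cells, 207 and 148 in T or NK cells, 91.3 in Smad3-KO dendritic cells, 89.3 in B cells and 5.85 and 2.73 in neutrophils. Tyms, thymidylate synthase, had 988 UMIs in LLC cells and 0 in the neutrophils of both libraries, where 3 UMIs would amount to 1.95 and 2.73 CPM. Hells, a chromatin remodeler, was at 70.4 CPM in LLC cells, 48.6 and 31.0 in T or NK cells, 37.0 in Smad3-KO dendritic cells and 29.1 in B cells.

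Among the mitotic cyclins and their kinase, Cdk1 was at 113 CPM in Smad3-WT T or NK cells, 65.0 in LLC cells, 31.0 in Smad3-KO T or NK cells and 29.0 in Smad3-WT macrophages. It had 4 UMIs in Smad3-WT neutrophils and 0 in Smad3-KO neutrophils and in Smad3-KO macrophages. Ccna2, cyclin A2, was at 108 CPM in LLC cells, 59.0 in granule-gene neutrophils and 57.2 and 26.5 in fibroblasts of Smad3-WT and Smad3-KO. Ccnb1, cyclin B1, was at 73.4 CPM in LLC cells and at 5.27 in Smad3-WT macrophages. Of the anaphase genes, Ube2c was at 265 CPM (256 to 274) in LLC cells, 262 and 50.9 in T or NK cells, 144 and 82.3 in fibroblasts, 91.8 in granule-gene neutrophils, and 3.90 and 0 in neutrophils of Smad3-WT and Smad3-KO. Cdc20, the activator of the anaphase-promoting complex, was at 64.6 CPM in LLC cells 32.4 in Smad3-WT T or NK cells, 27.2 and 18.6 in fibroblasts, and 0 in granule-gene neutrophils and Smad3-KO macrophages.

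Most kinases, kinetochore and spindle genes were likewise low in neutrophils, Kif23 less so. Birc5, survivin, a partner of Aurora B, was at 220 CPM in LLC cells, 54.6 and 3.83 in macrophages of Smad3-WT and Smad3-KO, and 7.16 and 1.82 in neutrophils. Plk1 was at 30.1 CPM in LLC cells and 29.1 in Smad3-WT T or NK cells, and had 0 UMIs in Smad3-WT neutrophils and 1 in Smad3-KO neutrophils. Cenpa, the histone of centromeres, was at 203 CPM in LLC cells, 67.4 and 23.0 in macrophages, and 18.2 and 7.28 in neutrophils. Cenpf, a kinetochore protein, was at 66.3 CPM in LLC cells and 0.651 and 0 in neutrophils. Top2a, which untangles sister chromatids, was at 128 CPM in LLC cells, 98.3 in granule-gene neutrophils, 45.2 and 7.66 in macrophages and 6.51 and 0.911 in neutrophils. Mki67, the Ki-67 antigen, was at 64.7 CPM in Smad3-WT T or NK cells, 45.9 in granule-gene neutrophils, 42.5 in LLC cells, 32.1 in Smad3-KO dendritic cells and 1.95 and 5.46 in neutrophils (3 and 6 UMIs). Kif23, a motor of cytokinesis, was at 10.4 and 6.37 CPM in neutrophils (16 and 7 UMIs), 10.9 in Smad3-WT macrophages, 12.9 in Smad3-WT T or NK cells and 26.6 in LLC cells. In Smad3-WT the level was highest in LLC cells for 25 members, in T or NK cells for 10, in cluster 11 for 2 and in fibroblasts for 1, and many neighbours in these orders overlapped in their intervals. In Smad3-KO granule-gene neutrophils were highest for 15 members, 13 of them mitosis members, from few UMIs each. Dendritic cells were highest for 10, T or NK cells for 7, fibroblasts for 3, B cells for 2 and monocytes for 1.

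**Figure D2:**
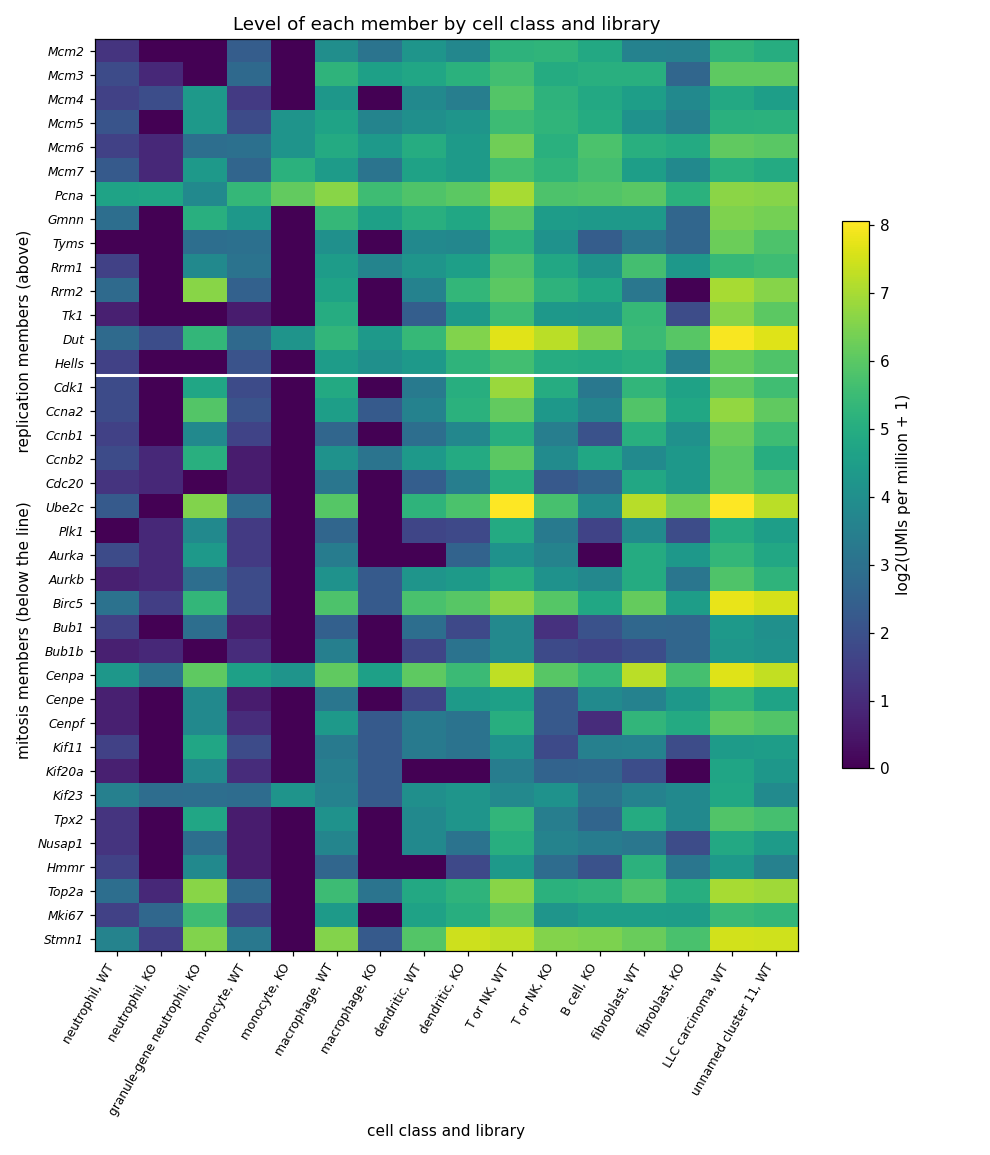
Level of each of the 38 members (rows; replication above the white line, mitosis below) in each cell class and library with at least 20 cells (columns), as log2 of CPM plus 1. The columns of neutrophils and of Smad3-KO monocytes are darkest, and the columns of LLC carcinoma cells and Smad3-WT T or NK cells are brightest.

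Replication and mitosis transcripts stood in different proportions in different classes. The UMIs of replication members divided by those of mitosis members came to 0.599 (0.587 to 0.612) in LLC cells, 0.774 in Smad3-WT macrophages, 0.668 and 1.14 in T or NK cells of Smad3-WT and Smad3-KO, and 0.440 and 0.449 in fibroblasts. B cells stood at 1.35 (1.17 to 1.56) and Smad3-KO macrophages at 2.67 (1.52 to 4.87, from 66 UMIs). Granule-gene neutrophils stood at 0.369 (0.252 to 0.533), with 41 replication and 111 mitosis UMIs.

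Within LLC carcinoma cells members were found together in the same cells. When each cell was drawn down to 5000 UMIs, which 570 of 592 cells allowed, 60.2% of cells held at least 3 replication members, 59.1% held at least 3 mitosis members and 45.6% held both. A further 14.6% held at least 3 replication members with fewer mitosis members, and 13.5% the reverse. Cells with a UMI of Plk1 (9.65% of cells) held a mean of 9.85 other mitosis members, and cells without held 4.06. For Aurka, which matures the spindle poles, the means were 9.57 and 3.96, and for Ccnb1 they were 8.57 and 3.35. Mcm2 (4.90 and 4.68) and Dut (4.78 and 4.62) hardly separated cells by mitosis members, while Mcm2 separated them by other replication members (4.45 and 3.19). Rrm2 (6.38 and 4.07) and Tk1 (6.36 and 3.94) stood between, and for Cenpf the cells with and without it held 3.47 and 3.54 replication members. These are counts over cells of 1 library and carry no test. In Smad3-WT macrophages, 226 of 517 cells reached 5000 UMIs, and 18.1%, 17.3% and 8.85% of these held at least 3 replication members, at least 3 mitosis members and both.

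**Figure D3:**
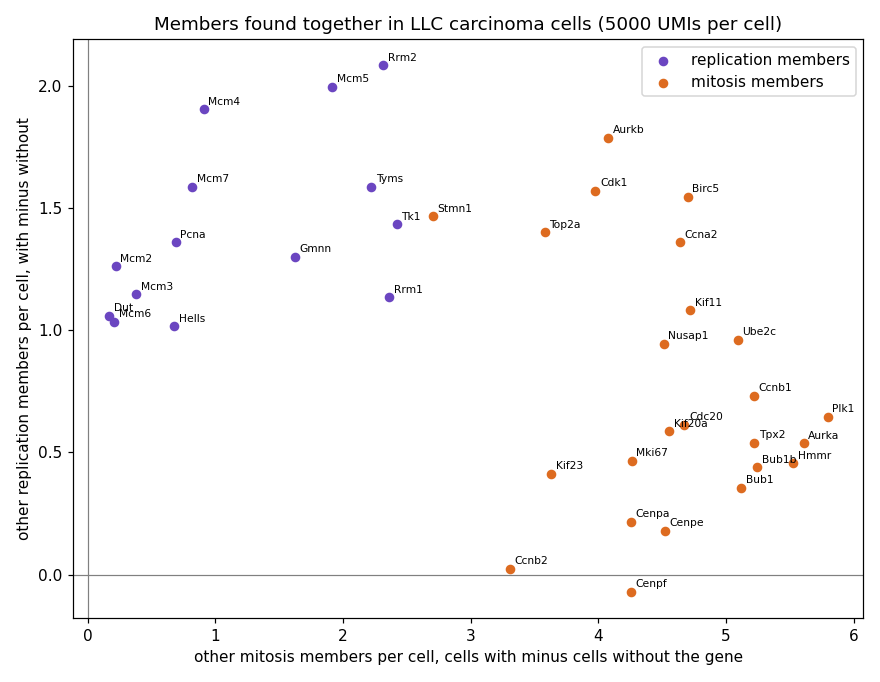
For each member, how many more other mitosis members (x axis) and other replication members (y axis) LLC carcinoma cells with a UMI of that gene held than cells without it, every cell at 5000 UMIs. Mitosis members lie to the right, between 2.70 for Stmn1 and 5.79 for Plk1, and replication members lie to the left, between 0.167 for Dut and 2.42 for Tk1.

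Between the libraries the members were lower in Smad3-KO over all kept cells, at 667 CPM (643 to 693) against 2174 (2155 to 2193), a ratio of 0.307 (0.295 to 0.319; 0.253 without shared barcodes). All 38 were lower, and 30 of 38 were at least 2-fold lower, 22 of 24 mitosis and 8 of 14 replication members, where 21.9% of all 13181 genes with at least 20 UMIs were that much lower and 22.7% that much higher. The median ratio was 0.274 for the members and 0.992 for all genes. Cenpf had 1133 Smad3-WT UMIs and 21 Smad3-KO UMIs, a ratio of 0.105 (0.0649 to 0.162), Cdc20 a ratio of 0.120 and Tyms 0.124 (0.0816 to 0.182). Mcm7 (0.904, 0.726 to 1.12), Mcm4 (0.777) and Mcm5 (0.696) were the least different.

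Much of this difference went with the 2 clusters that Smad3-WT alone held in number, LLC carcinoma cells and cluster 11. Without them, a choice made after the data were seen, the members were at 655 CPM in Smad3-KO and 666 in Smad3-WT, a ratio of 0.983 (0.938 to 1.03). Replication members then stood at 1.12 (1.05 to 1.20) and mitosis members at 0.879 (0.823 to 0.938). Classes that Smad3-KO alone held in number stayed in this comparison. Of its 2712 Smad3-KO member UMIs, 809 were in 577 B cells and 152 in 61 granule-gene neutrophils. A ratio without these classes too was not computed, so the near-equal levels rest on leaving out Smad3-WT classes only. Only Cenpf and Bub1b, a spindle checkpoint kinase, were then at least 2-fold lower (2 of 38, with 8.43% of all genes) and only Dut at least 2-fold higher (1 of 38, with 16.6%). The median ratio was 0.863 for members and 1.09 for all genes. Where the shared barcodes were left out as well, the members were at 510 and 665 CPM, a ratio of 0.767 (0.728 to 0.808), with 0.900 for replication and 0.668 for mitosis members.

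Macrophages and dendritic cells differed between the libraries in opposite directions, and the values moved with the clustering, which also set the border drawn between them. Smad3-WT macrophages (517 cells) had 989 CPM of members and Smad3-KO macrophages (99 cells) 253, a ratio of 0.256 (0.197 to 0.326), with 0.426 for replication and 0.124 for mitosis members. Ube2c had 160 UMIs in Smad3-WT macrophages and 0 in Smad3-KO macrophages, at least 5.24-fold lower against a floor of 3 UMIs over the class. Stmn1, which destabilizes microtubules, had 250 UMIs against 1, a ratio of 0.0407 (0.00103 to 0.229), and Birc5 145 against 1. Pcna had 257 against 12, a ratio of 0.475 (0.242 to 0.844). Of the 34 members with at least 20 UMIs, 22 were at least 2-fold lower in Smad3-KO, with 11% of all genes, and 0 were 2-fold higher, with 13%. With genes of 0 UMIs set at the floor, and without the 0.5 UMIs added to the other calls, 19 of 34 were 2-fold lower, with 12.3% of all genes. The median ratio of these members was 0.278, or 0.480 at the floor, against 1.05 and 1.02 for all genes. All 3 macrophage clusters were lower in Smad3-KO, at 361 and 159 CPM (cluster 8, led by Ppbp and Mmp12), 1327 and 160 (cluster 9, led by Ccl8 and Folr2) and 1068 and 380 (cluster 10, led by Ear2 and Retnla). The ratios were 0.440 (0.252 to 0.718), 0.121 (0.0484 to 0.249) and 0.356 (0.255 to 0.485). In Smad3-KO they rest on 45, 22 and 32 cells with 17, 7 and 42 member UMIs.

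Dendritic cells had 728 CPM in Smad3-WT (94 cells) and 1063 in Smad3-KO (112 cells), a ratio of 1.46 (1.26 to 1.69; 1.22 without shared barcodes), and 3 of 14 members with enough UMIs were at least 2-fold higher, with 11.8% of all genes, and 0 of 14 lower, with 8.65%. The 3 were Stmn1 (58.9 and 173 CPM), Dut (41.4 and 91.3 CPM) and Rrm2 (10.9 and 39.5 CPM, from 5 and 16 UMIs). Most dendritic member UMIs lay in cluster 13, led by Dnase1l3, Cd209a and Clec9a, with 914 CPM in 64 Smad3-WT cells and 1911 in 45 Smad3-KO cells, a ratio of 2.09 (1.80 to 2.44; 1.77 without its shared barcodes). Cluster 16, led by Il12b and Ccl22, was at 129 CPM in 27 Smad3-WT cells and 235 in 41 Smad3-KO cells, a ratio of 1.82 (0.921 to 3.80), from 13 and 30 UMIs. The name of cluster 13 depended on the clustering: of its 109 cells, 99 were named macrophages with no quality filter, 104 with cell cycle genes kept and 104 with 30 principal components. With these settings the macrophage ratio was 1.11, 1.15 and 1.02, and the dendritic ratio 0.760, 0.731 and 1.71. Each setting clustered all cells anew, so cells other than those of cluster 13 could change class too. In the main clustering the summed level of the other dendritic clusters, 16 and 21, was also higher in Smad3-KO, but from few UMIs. Cluster 21 was at 231 CPM in 3 Smad3-WT cells (2 UMIs) and 309 in 26 Smad3-KO cells (25 UMIs). In cluster 16 the interval covered both directions. Its replication members were at 79.4 CPM in Smad3-WT and 196 in Smad3-KO, and its mitosis members, the other way, at 49.6 and 39.1 (5 UMIs each). How far the name of cluster 13 alone moved these ratios was not tested. Over macrophages and dendritic cells together, a value free of that border, Smad3-KO stood at 745 CPM and Smad3-WT at 950, a ratio of 0.784 (0.712 to 0.863; 0.658 without shared barcodes), with 0.798 for replication and 0.774 for mitosis members. That ratio turned to 1.19 when cells with 3 markers of another lineage were left out.

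T or NK cells, a class that joined 2 clusters, had 2392 CPM in Smad3-WT (64 cells) and 1057 in Smad3-KO (474 cells), a ratio of 0.442 (0.400 to 0.488; 0.275 without shared barcodes, which held 353 of 852 member UMIs of Smad3-KO in 5 cells). Of 25 members with enough UMIs, 15 were at least 2-fold lower, with 12.4% of all genes, and 0 higher, with 11.2%. The clusters went opposite ways. Cluster 6, led by Dapl1, Icos, Lef1 and Tcf7 and holding most of the Smad3-KO cells, was at 2751 CPM in 21 Smad3-WT cells and 920 in 459 Smad3-KO cells, a ratio of 0.334 (0.284 to 0.395; 0.186 without shared barcodes). Cluster 18, led by Gzma, Ifng and Gzmb and holding most of the Smad3-WT cells, was at 2291 CPM in 43 Smad3-WT cells and 3698 in 15 Smad3-KO cells, a ratio of 1.61 (1.34 to 1.94). B cells, held almost only by Smad3-KO, had 840 CPM. Their cluster 19, with 41 cells led by Jchain, was at 2731 CPM, while cluster 7 was at 448 and cluster 15 at 247. Fibroblasts had 1310 CPM in Smad3-WT (52 cells) and 711 in Smad3-KO (70 cells), a ratio of 0.543 (0.466 to 0.632; 0.350 without shared barcodes), with 4 of 12 members at least 2-fold lower, against 7.04% of all genes, and 0 higher, against 8.95%. Of these fibroblasts 82.7% in Smad3-WT and 81.4% in Smad3-KO carried 3 markers of another lineage, which left too few cells, 9 in Smad3-WT, for a ratio without them. Other classes held such cells too. In Smad3-WT and Smad3-KO they were 54.7% and 19.8% of T or NK cells and 39.1% and 59.6% of macrophages. They were 30.9% and 44.6% of dendritic cells, 30.7% of Smad3-WT LLC cells, and 2.16% and 2.22% of neutrophils.

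Few cells carried these sums. In Smad3-KO the 5 cells richest in member UMIs held 58.7% of those of T or NK cells, 71.5% of those of dendritic cells and 71.3% of those of fibroblasts. They held 43.9% of the 66 member UMIs of Smad3-KO macrophages. In Smad3-WT the 5 richest cells held 64.0% in T or NK cells, 53.3% in dendritic cells, 70.1% in fibroblasts, 19.0% in macrophages and 6.29% in LLC cells. The intervals above count UMIs and not cells, and are narrower than the spread between cells would give.

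**Figure D4:**
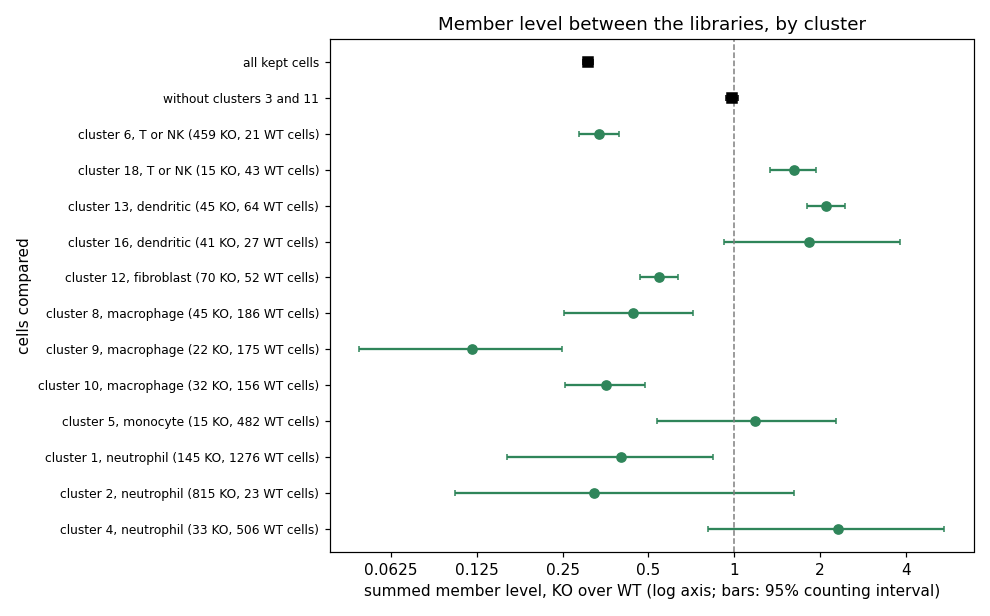
Summed level of the 38 members in Smad3-KO over Smad3-WT (log axis, with 95% intervals that cover counting error only), over all kept cells, without clusters 3 (LLC carcinoma) and 11, and in each named cluster with at least 10 cells in both libraries. All kept cells stand at 0.307 and the cells without those clusters at 0.983, the 3 macrophage clusters lie between 0.121 and 0.440, and dendritic cluster 13 lies at 2.09.

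Neutrophils had the lowest member levels of all, at 147 CPM (128 to 168) in Smad3-WT and 62.8 (48.9 to 79.5) in Smad3-KO, a ratio of 0.427 (0.322 to 0.562). The genotypes lay mainly in different clusters, cluster 1 and cluster 4 for Smad3-WT and cluster 2 for Smad3-KO. Within clusters the ratio was 0.401 (0.159 to 0.844) in cluster 1, 0.323 (0.105 to 1.61) in cluster 2 and, the other way, 2.31 (0.807 to 5.44) in cluster 4, where Smad3-KO had 6 UMIs. The median ratio of all genes in this class was 0.721, with 25.9% of all genes at least 2-fold lower and 7.54% higher. Only Pcna, Cenpa and Kif23 had 20 UMIs, with ratios of 1.03, 0.400 and 0.612, and only Cenpa (28 UMIs against 8) was at least 2-fold lower, while 0 were higher. Monocytes, with 21 Smad3-KO cells, stood at 190 and 189 CPM, where 3 UMIs would amount to 51.5 CPM in Smad3-KO and single members could not be compared. Most of these UMIs were single ones: 206 Smad3-WT neutrophils shared 226 and 61 Smad3-KO neutrophils shared 69. Relative to Smad3-WT macrophages, the level in Smad3-WT neutrophils came to a median of 0.110 for members and 0.0196 for the 11 macrophage markers. Relative to LLC cells it came to 0.0399 for members and 0.0159 for 5 LLC markers. Relative to T or NK cells, the level in Smad3-KO neutrophils came to 0.0193 for members and 0.00456 for 9 T or NK markers. The members' quotients were thus above those of the markers, and how much of the member level in neutrophils was RNA of other cells was not tested.

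Granule-gene neutrophils, found in Smad3-KO alone, had 996 CPM (844 to 1168), 15.9-fold (11.9 to 21.4) that of the other Smad3-KO neutrophils, with 25.0-fold for mitosis and 7.98-fold for replication members. None of their barcodes was shared. Their leading members were Rrm2 and Top2a (15 UMIs each) and Ube2c and Stmn1 (14 each), and 6 members, Mcm2, Mcm3, Tk1, Hells, Cdc20 and Bub1b, had 0, where 3 UMIs would amount to 19.7 CPM. Of the 61 cells, 14 had a member UMI, and 5 of them held 109 of the 152.

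When every cell was drawn down to 500 UMIs, 2 of 1805 Smad3-WT neutrophils (0.111%) and 0 of 993 Smad3-KO neutrophils (an upper bound of 0.371%) held at least 2 different members. The share was 36.7% (32.8 to 40.7%) in LLC cells, 32.0% in cluster 11, 6.38% (4.43 to 8.85%) and 3.03% (0.629 to 8.60%) in macrophages of Smad3-WT and Smad3-KO, 12.5% and 3.16% in T or NK cells, 5.32% and 7.14% in dendritic cells, and 2.95% in B cells. Granule-gene neutrophils stood at 11.5% (4.74 to 22.2%), 7 of 61 cells. With at least 1 member in place of 2, neutrophils stood at 7.09% and 3.52% and LLC cells at 62.5%. Without drawing down, the shares were 96.1% in LLC cells at a median of 21114.5 UMIs, 36.4% in Smad3-WT macrophages at 4576, and 0.499% and 0.201% in neutrophils at 736 and 981.

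**Figure D5:**
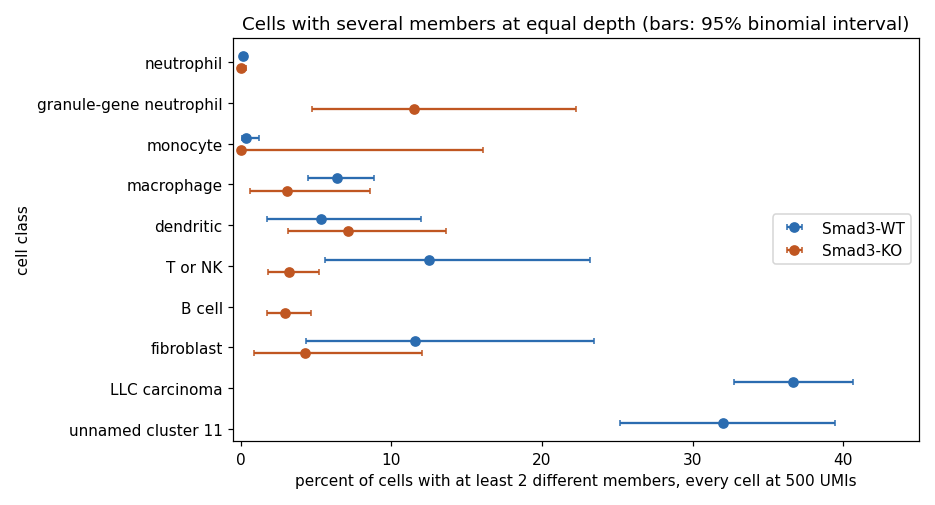
Percent of cells with at least 2 different members when every cell is drawn down to 500 UMIs, by class and library, with exact 95% binomial intervals. LLC carcinoma cells stand at 36.7% and neutrophils of both libraries at 0.111% and 0%, while granule-gene neutrophils stand at 11.5%.

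The study filtered its cells on S100a9, S100a8, Csf3r and Il1rn below an upper limit on UMIs. It read Stmn1 and Ube2c as signs of immaturity, beside Il1b and Csf3r as signs of maturity. Its account of maturation also drew on RNA velocity, a MetaCell network, transcriptional signatures, pseudotime and cultured neutrophils. It drew as well on public single-cell data of human lung cancer, where it read STMN1 among the signs of immaturity. None of these is examined here. How it combined the filter markers was not given in the sources used here. The rule used below, a UMI of any of them in cells with under 20000 UMIs, keeps fewer Smad3-WT and more Smad3-KO cells than the study did, so its shares are not those of the study's own TANs. Of the 2899 Smad3-WT cells that passed this rule, 62.0% were in the neutrophil class. These held 2.97% of the Stmn1 UMIs (17 of 573) and 1.61% of the Ube2c UMIs (6 of 373). Neutrophils were shallow, so a share of cells is no background for a share of UMIs, and levels are given too. Stmn1 was at 11.1 CPM in these neutrophils against 71.6 over all Smad3-WT cells that passed, and Ube2c at 3.91 against 46.6. LLC cells held 31.1% and 39.9% of the Stmn1 and Ube2c UMIs, cluster 11 held 29.5% and 18.8%, and macrophages held 26.9% and 26.3%. Of 1605 such Smad3-KO cells 61.7% were neutrophils, with 1.28% of the Stmn1 UMIs (2 of 156) and 0 of 70 Ube2c UMIs. The levels in these neutrophils were 1.82 and 0 CPM, against 59.6 and 26.7 over all Smad3-KO cells that passed. Granule-gene neutrophils held 14 Stmn1 and 14 Ube2c UMIs, dendritic cells 59 and 14, and T or NK cells 32 and 19. For all members, neutrophils held 3.05% of the UMIs in the Smad3-WT cells and 4.82% in the Smad3-KO cells that passed. That was 147 CPM against 922 over all such Smad3-WT cells, and 62.9 against 547 in Smad3-KO. Granule-gene neutrophils, not counted in these shares, were 3.80% of the Smad3-KO cells that passed. They held 10.6% of the member UMIs of those cells, at 996 CPM.

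The averages the authors deposited for 13 clusters of all barcodes rest on a grouping of their own. Each average was a whole number of UMIs divided by the cluster's total, so sums could be recovered. The members were highest in cluster 11 of that grouping for 36 of 38 genes. That cluster, with LLC markers as its leading list, was at 3857 CPM (3816 to 3898) and held 63.1% of member UMIs and 31.8% of all UMIs. Cluster 2, with fibroblast markers as its leading list (8 of 8), was at 1657 CPM and held 25.1% of member UMIs and 29.5% of all UMIs. It had 8302305 UMIs, against 367290 and 376770 in the fibroblasts of Smad3-WT and Smad3-KO named here. Most of its UMIs were thus not those of fibroblasts named here. LLC cells of Smad3-WT named here had 13144360 UMIs, against 8955798 in cluster 11 of that grouping. Which cells filled cluster 2 was not tested. Cluster 9 (T or NK markers) was at 1146 CPM, cluster 7 (macrophage markers) at 1045 and cluster 8 (B cell markers) at 822. The clusters of neutrophil markers numbered 1, 3, 4 and 6 lay between 55.0 and 153 CPM, and cluster 10, with all 11 neutrophil and all 8 granule markers, at 514. Cluster 6, at 153 CPM, also had 7 of the 8 granule markers. The exceptions were Mcm4, at 38.4 CPM in cluster 9 and 36.0 in cluster 11, and Mcm7, at 46.1 in cluster 8 and 41.5 in cluster 11. Outside the lists, the genes whose log averages over these 13 clusters ran most like the summed members, among 8871 genes, were Gmds, Nip7, Timm9, Dap3, Wdr55, Eif3l, Nop58, Ppil1, Kif15 and Nt5m, with r from 0.964 to 0.982, a description over clusters that share depth and libraries.

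Other genes of the cycle followed the members where they belonged to the same steps. Over all kept cells, where 21.9% of all genes were at least 2-fold lower in Smad3-KO, 37 of 47 other mitosis genes were and 0 were higher (median ratio 0.311), Tuba1b (1082 and 242 CPM) and Tubb5 (754 and 251 CPM), which encode tubulins, among them. Of 22 other replication genes 13 were lower and 0 higher (median 0.397), such as Dtymk, thymidylate kinase (134 and 28.7 CPM), while Slbp, which binds histone mRNA, stood at a ratio of 0.841. Of 12 genes of G1 7 were lower, with Ccnd1 (cyclin D1) at 130 and 30.9 CPM and Cdk4 at 307 and 84.4, and 2 were higher, E2f2 and Ccnd3 (75.1 and 215 CPM). Genes that hold the cycle back stood apart from these. Of 12 with enough UMIs 6 were at least 2-fold higher in Smad3-KO (Cdkn1a, Cdkn1b, Cdkn1c, Rbl2, Btg1 and Ccng2) and 1 was lower (Cdkn2c), with 22.7% of all genes higher. Without the 2 clusters that Smad3-WT alone held in number, few of these genes were past 2-fold: 4 of 44 other mitosis genes were lower and 1 higher, 0 of 20 other replication genes lower and 1 higher, 2 of 12 G1 genes lower and 1 higher, and 0 of 12 genes that hold the cycle back lower and 1 higher (Ccng2), with 8.43% of all genes lower and 16.6% higher. Single genes of the last list differed in where they were high. Btg1, an antiproliferative factor of lymphoid and myeloid cells, was at 4150 and 3420 CPM in neutrophils of Smad3-WT and Smad3-KO and 127 in LLC cells. Cdkn1a, the p21 inhibitor of cyclin-dependent kinases, was at 1335 and 1363 CPM in neutrophils and 41.6 in LLC cells. Cdkn2c, the p18 inhibitor of the same family of kinases, was the other way, at 5.85 and 0 CPM in neutrophils and 64.8 in LLC cells.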

How the data were processed

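The deposited count matrix held UMI counts per gene and barcode of 2 libraries in 1 matrix, produced by the authors from 5′ libraries with Cell Ranger on the build mm10 (per the labels). The authors also deposited averages per genotype and per cluster, a signal equal to the UMIs of a gene divided by the total of that library or cluster and multiplied by the median UMIs per barcode. The library of each barcode, given by its suffix, was matched to a genotype through the averages named for that genotype, which equal the scaled sums of the matrix. Columns of the authors' fold changes and p-values were not used.

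Cells needed at least 200 genes, under 10% mitochondrial UMIs and over 500 UMIs, the filter of the study's methods without its upper limit of 20000. Louvain clusters (resolution 1.0, 15 neighbours, 100 principal components, 2000 variable genes, seed 1) left out the members and 95 related genes, and took a class name where at least 3 markers of 1 list were found in 10% of cells at 2-fold. No doublet caller was run, and an alternative left out cells with 3 markers of another lineage. That alternative left out 0 of the 191 Smad3-WT cells of unnamed clusters, which had no named lineage of their own. Levels are summed UMIs over the total of the same cells (CPM). Intervals of 95% are exact Poisson for levels, Clopper-Pearson for shares and conditional binomial for ratios. They cover counting error only, and UMIs of 1 cell are not independent. A ratio of 1 gene needed 20 UMIs, a fold of 2 stood for a call in place of a test, and 0.5 UMIs were added for medians and calls. Where genes of 0 UMIs were set at the floor in macrophages, the 0.5 UMIs were not added. Likeness used CPM plus 5 on the log scale and genes with at least 200 UMIs. The members, lists and alternatives were chosen with earlier results of these data known. All 38 members could be named, and of the related lists the 3 genes with most UMIs and any at least 2-fold apart. The tools were igraph 0.11.9, scikit-learn 1.9.0, matplotlib 3.10.9, pandas 2.3.3, scipy 1.17.1 and numpy 2.4.6 under Python 3.11.15, and the scripts were tested on simulated data. Promoter windows were not held here for Mcm4, Stmn1, Ccna2, Aurkb, Kif20a, Tpx2 and Gmnn.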

Additional observations from a re-analysis of the deposited data

How the results depend on the processing

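Of 241 values recomputed for 22 results under 17 alternatives, 163 moved by less than their interval, 72 moved further and 6 turned in direction. Over all kept cells the Smad3-KO level relative to Smad3-WT (0.307) was 0.580 with the upper limit of 20000 UMIs, 0.245 without cells with 3 markers of another lineage, 0.269 with median-of-ratios scaling, 0.459 as a mean over cells, 0.319 without Ube2c, 0.270 with a total free of mitochondrial and ribosomal protein genes, 0.253 without barcodes held by both libraries, 0.983 without the 2 clusters that Smad3-WT alone held, and 0.767 without both; alternatives on shared barcodes and on those clusters were chosen after seeing the data. The macrophage ratio (0.256) turned to 1.11 with no quality filter, 1.15 with cell cycle genes kept for clustering and 1.02 with 30 principal components, and was 0.330 without cells of mixed markers and 0.452 as a mean over cells. The dendritic ratio (1.46) turned to 0.760 with no quality filter and 0.731 with cell cycle genes kept, and was 1.03 with the upper limit, 1.71 with 30 components, 2.16 without cells of mixed markers, 1.08 as a mean over cells and 1.22 without shared barcodes. Both classes together (0.784) turned to 1.19 without cells of mixed markers, and stood at 0.881 with the upper limit, 0.671 with median-of-ratios scaling, 0.679 as a mean over cells and 0.658 without shared barcodes. The T or NK ratio (0.442) was 0.378 with 30 components, 0.231 without cells of mixed markers, 0.293 as a mean over cells, 0.513 with the reduced total and 0.275 without shared barcodes. The fibroblast ratio (0.543) was 0.432 with no filter, 0.436 with cell cycle genes kept, 0.434 with 30 components and 0.350 without shared barcodes, and the neutrophil ratio (0.427) was 0.611 with median-of-ratios scaling. The LLC share of member UMIs (76.3%) was 67.0% with the upper limit, 66.3% with no filter, 73.4% with cell cycle genes kept, 65.2% with 30 components, 74.4% without cells of mixed markers and 74.9% without shared barcodes. In Smad3-KO the T or NK share (30.8%) was 21.7% with 30 components and 24.2% without shared barcodes, and the B cell share (29.2%) was 38.5% with 30 components, 36.3% without cells of mixed markers and 35.7% without shared barcodes. Cells with at least 2 members at 500 UMIs were 24.1% of LLC cells with the upper limit, 41.4% with no filter and 40.9% with 30 components, and 11.3%, 9.28% and 9.71% of Smad3-WT macrophages with no filter, with cell cycle genes kept and at resolution 0.5. With at least 1 member, LLC cells, Smad3-WT macrophages and Smad3-KO T or NK cells stood at 62.5%, 21.7% and 15.8%, and with at least 3 at 17.7%, 2.90% and 1.27%. Neutrophils of Smad3-WT and Smad3-KO stood at 7.09% and 3.52% with at least 1 member. The level of granule-gene neutrophils over other neutrophils (15.9) was 11.2 without cells of mixed markers. The upper limit, no filter, cell cycle genes kept, resolution 0.5, 30 components and another seed each clustered and named all cells anew. Values by class under these settings therefore need not cover the same cells as the main ones. The dendritic clusters of the main clustering held 0 cells with 20000 UMIs or more, so the limit itself left out none of them. The cause of these moves was not tested, and the names that cluster 13 took are given above. No paired analysis was possible because each genotype has 1 library, so no replicate could be left out either. Depth limits neutrophils, with a median of 736 and 981 UMIs per cell, where most members had under 20 UMIs.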
